A study of Mus musculus with 7 samples.

Results

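This comparison set 3T3-L1 cells exposed to exosomes from obese visceral fat against untreated 3T3-L1 cells, gene by gene. Its members were the genes with at least 1 CPM (the count scaled to a common library total after TMM adjustment) in either library, which were 12433 of the 34745 genes in the table. Zfp296, at 1.02 and 0.902 CPM, lay just inside this limit, and Apol8, at 0.512 and 0.992 CPM, just outside. Another 6176 genes had a count but stayed below the limit, and 16136 had no count in either library.

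3T3-L1 is a mouse embryonic fibroblast line that can be turned into fat cells with insulin, IBMX and dexamethasone. The labels give all cells as WT and used at days 8 to 10 of differentiation, after 10 μg/ml insulin, 0.5 mM IBMX and 1 μM dexamethasone. HFD-vWAT-Exos were released in culture by visceral white adipose tissue (vWAT) of mice on a high-fat diet (HFD) and were left on the cells for 48 h. The control had no treatment by its label, whereas supplementary legends of the study name PBS, so an effect of vehicle or handling cannot be told apart from one of exosomes. The other 5 libraries received exosomes of inguinal white (iWAT) or brown adipose tissue (BAT), or of vWAT from mice on a low-fat diet (LFD). Each group was 1 library, so no difference had a replicate check and no test was made. Intervals are exact 95% (Clopper-Pearson) intervals of the ratio of 2 counts and cover counting error only, not PCR copies or differences between cultures.

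Both libraries were deep, at 21990561 counts in the control and 21463539 with HFD-vWAT-Exos, and 2.19% and 2.49% of counts were mitochondrially encoded. One library, from LFD-vWAT-Exos, was unlike the rest, with 13493560 counts, 1.10% mitochondrial counts and 28.7% to 30.5% of genes at least 2-fold apart in its pairs. Its values are given with the rest, and where it alone lies at the extreme this can be read from the values. Markers of mature fat cells were scarce in both libraries. Of 12 such markers only Lipe (hormone-sensitive lipase) and Fabp4 (a fatty acid carrier) reached 1 CPM, while Adipoq (adiponectin) had 9 counts in the control and 2 counts with HFD-vWAT-Exos, and Cfd, Retn, Pck1 and Adig had 0 counts in both. The labelled stage of full differentiation therefore was not matched by these markers.

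Exosomes are small vesicles that carry lipids, proteins and RNA from one cell to another. Those of fat tissue can reach fat cells and macrophages, and the ones of obese animals have been linked to inflammation and lipid storage. The comparison addresses how vesicles of obese visceral fat act on 3T3-L1 cells in both respects. Among their miRNAs the study singled out miR-200a-3p and miR-200b-3p, which bind target mRNAs through their seeds. Both mature sequences are shown from RefSeq (GRCm38.p6, chromosome 4, minus strand) with the seed, bases 2 to 8, in capitals, because a list of their reported targets is described further on.
mmu-miR-200a-3p: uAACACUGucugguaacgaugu
mmu-miR-200b-3p: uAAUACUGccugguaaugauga

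The 2 libraries were close over most genes, and few genes lay at least 2-fold apart. The median log2 ratio of HFD-vWAT-Exos to control was 0.002, the 25th and 75th percentiles were -0.12 and 0.14, and 91.6% were within 0.5 of equal levels on the log2 scale. Genes were called apart from a 2-fold difference upwards (log2 ratio of 1 or more either way, after adding a prior count of 2), provided that equal levels lay outside the counting interval. This held for 247 genes (1.99% of those tested), of which 142 (1.14%) were higher and 105 (0.845%) lower with HFD-vWAT-Exos. Most were weakly expressed. The share apart was 12.8% of 742 genes below 2 CPM in the higher library, 5.30% of 1037 genes from 2 to 5 CPM, 1.63% from 5 to 10 CPM, 0.891% from 10 to 50 CPM and 0.743% of 4440 genes above. The excess of higher genes lay among the weak ones, and among genes with at least 10 CPM 31 were higher and 47 lower. Genes that share reads with another gene, by at least 20% of exon bases or of 31-base words, made up 28.7% of the genes apart and 15.2% of all tested.

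**Figure D1:**
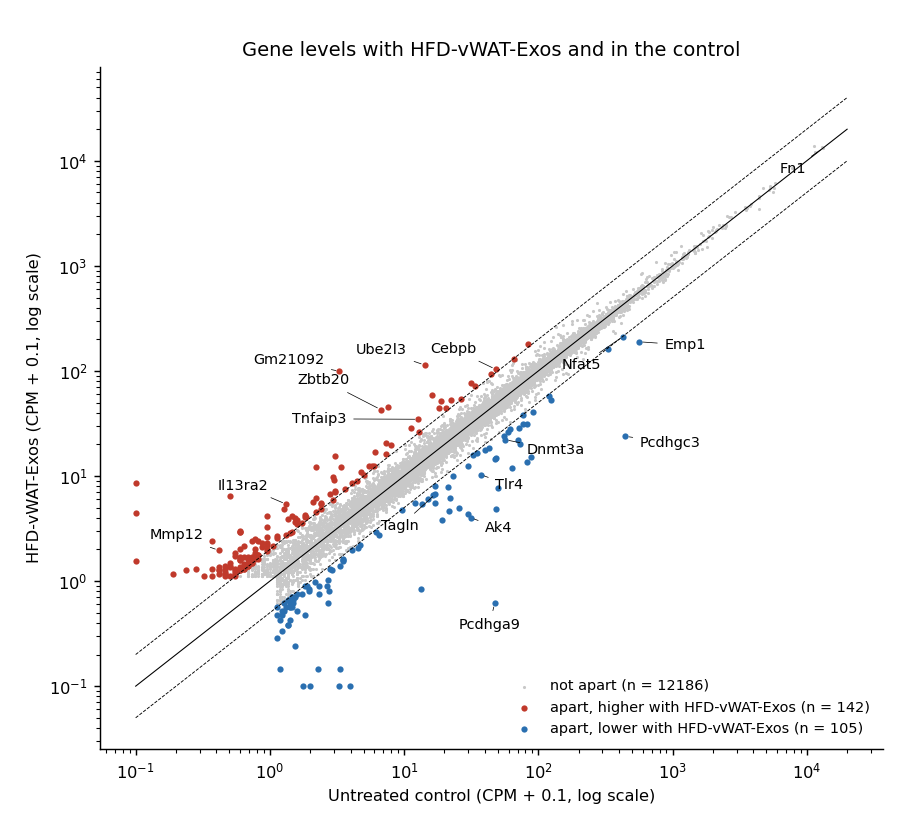
Level of each of the 12433 genes in the control (x axis) and with HFD-vWAT-Exos (y axis), both as CPM plus 0.1 on log scales, 1 library each. Solid line, equal levels; dashed lines, 2-fold; the 142 red and 105 blue genes apart lie mostly at low levels, while strongly expressed genes such as Fn1 lie on the line.

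For scale, other library pairs were compared by the same rule, and none is a pair of replicates. Against the same control, LFD-BAT-Exos gave 219 genes (1.76%), HFD-BAT-Exos 282 (2.27%), HFD-iWAT-Exos 361 (2.9%) and LFD-iWAT-Exos 637 (5.12%). Between exosome libraries, HFD-vWAT-Exos differed from HFD-BAT-Exos in 210 genes (1.69%), from LFD-BAT-Exos in 216 (1.73%), from HFD-iWAT-Exos in 288 (2.31%) and from LFD-iWAT-Exos in 559 (4.48%). The number apart from the control thus lay within the range seen between exosome libraries, from 1.69% to 5.17% without LFD-vWAT-Exos.

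The position of the other libraries showed, for part of the genes, which side of the comparison departed. Of the 247 genes apart, the control alone held the extreme of all 7 levels in 94 (38.1%) and HFD-vWAT-Exos alone in 64 (25.9%). Both held an extreme in 38 (15.4%) and neither in 51 (20.65%). Over all genes tested these shares were 24.4%, 19.1%, 1.15% and 55.3%. A gene apart has at least one library far out, so its share at the extremes is raised by the way it was called. The control lay at least 2-fold beyond all 6 others in 25 genes, and HFD-vWAT-Exos in 12.

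NF-kappaB is a transcription factor family that drives inflammatory genes and its own inhibitors, and 27 of 34 tested genes of the NF-kappaB and acute phase list were higher with HFD-vWAT-Exos. The median log2 ratio of the 34 was 0.15, against 0.002 over all genes. Of the 34, 3 were apart (Tnfaip3 and Cebpb higher, Tlr4 lower), while 1.99% of all genes tested were apart. Tnfaip3 (A20), an inhibitor of NF-kappaB signalling, was at 12.7 CPM in the control, 34.6 CPM with HFD-vWAT-Exos and 28.9 to 59.8 CPM in the other 5. The control was the only low library. Tnfaip3 was 2.73-fold higher (95% interval 2.38 to 3.14). Cebpb, a transcription factor of early adipogenesis and the acute phase, was at 47.9 CPM in the control, 104 CPM with HFD-vWAT-Exos and 71.0 to 224 CPM in the others, again with the control lowest. It was 2.16-fold higher (2.01 to 2.33), and 20.7% of its exon bases lie in Tmem189 on the other strand. Among members below the 2-fold limit, Nos2, the inducible nitric oxide synthase, went from 179 to 300 CPM, Socs3, a brake on cytokine signalling, from 75.8 to 116 CPM, and Lcn2 (lipocalin 2) from 758 to 1088 CPM. Each had its highest level in another exosome library, with 519 CPM of Nos2, 259.5 CPM of Socs3 and 1798 CPM of Lcn2 with LFD-iWAT-Exos. Rela and Nfkbia, a subunit of the factor and its inhibitor, had log2 ratios of 0.16 and -0.08.

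The promoter of Tnfaip3 is shown because the gene is a known NF-kappaB target and had the highest ratio in its list. It is the RefSeq window (GRCm38.p6) at chr10:19015361-19015660, minus strand, from 250 bases before to 50 after the start of the gene in RefSeq. Another annotation, GENCODE M21, places the start at 19015657, and by it nearly all of the window lies within the gene. Capitals mark matches to GGANNTNCC, a kappaB-like motif (N is any base) chosen after the sequence was seen and searched on both strands.
Tnfaip3 promoter: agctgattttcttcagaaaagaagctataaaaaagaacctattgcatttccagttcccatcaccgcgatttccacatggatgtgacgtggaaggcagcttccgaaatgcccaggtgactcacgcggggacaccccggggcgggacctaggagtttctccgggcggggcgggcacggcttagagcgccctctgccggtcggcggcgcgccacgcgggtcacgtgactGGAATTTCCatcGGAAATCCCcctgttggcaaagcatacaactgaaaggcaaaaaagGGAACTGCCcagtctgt
The window holds 3 matches. Of 32851 promoter windows of this length 4916 hold the motif (15%), and a match is a description of the letters, not a sign of binding.

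Tlr4, the receptor for bacterial lipopolysaccharide, stood out in the opposite direction. It was at 10.2 CPM with HFD-vWAT-Exos, 37.2 CPM in the control and 33.2 to 88.0 CPM in the other 5, so that HFD-vWAT-Exos was the only low library. Tlr4 was 3.65-fold lower than in the control (3.14 to 4.25). Its adaptor Myd88, at 27.8 and 28.2 CPM, did not share this, nor did the related receptor Tlr2, at 220.0 and 220.1 CPM.

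Cytokines and chemokines showed no gene apart among 22 tested, with 15 higher and a median log2 ratio of 0.08. Lif, a cytokine of the interleukin 6 family, was highest of the well-counted ones, at 10.1 CPM in the control and 18.2 CPM with HFD-vWAT-Exos (1.80-fold, 1.52 to 2.13), and lay between 10.26 and 108 CPM in the others. Il1rn, the natural blocker of the interleukin 1 receptor, went from 2.89 to 1.72 CPM (1.68-fold lower, 1.10 to 2.58). Il6 was at 5.55 and 6.52 CPM and Ccl2 (MCP-1) at 177 and 181 CPM, with intervals that include equal levels for both. Tnf, Il1b and Ifng, cytokines of inflamed fat tissue, stayed below 1 CPM in both libraries.

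Interferon-stimulated genes, an antiviral programme, leaned lower. Of 43 tested, 31 were lower and 11 higher, none was apart, and the median log2 ratio was -0.14. Ifi47, an interferon-induced GTPase, went from 23.3 to 15.1 CPM (1.54-fold lower, 1.34 to 1.77), and Ifit3, an antiviral effector with shared reads, from 139 to 100 CPM (1.39-fold lower, 1.31 to 1.46). Psmb9, an immunoproteasome subunit, was the main exception, at 3.70 and 5.82 CPM. HFD-vWAT-Exos was not the lowest library, since the others had 2.42 to 22.8 CPM of Ifi47 and 6.95 to 145 CPM of Ifit3. All 45 genes of the list summed to 5023 CPM in the control, 4507 CPM with HFD-vWAT-Exos and 1900 to 4925 CPM in the others.

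**Figure D2:**
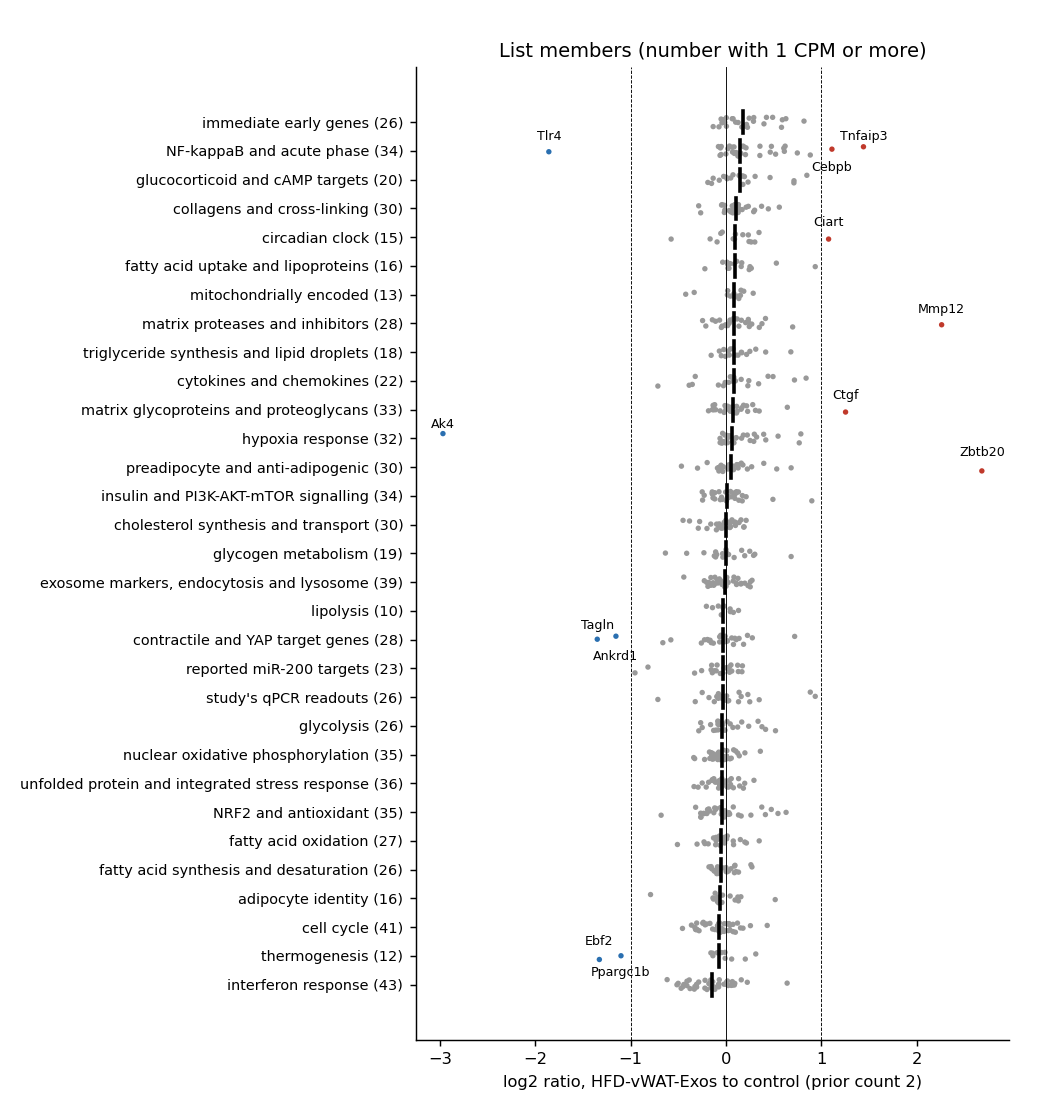
Log2 ratio of HFD-vWAT-Exos to control (x axis) for each tested member of the 31 gene lists, with the number tested in parentheses. Black bars are list medians, which lie between -0.14 and 0.18; named red and blue points are the 12 members apart, and dashed lines mark 2-fold.

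Across the 31 lists, 797 distinct genes were tested and 12 of them were apart, or 1.51%, against 1.99% of all genes. The lists were chosen with earlier results of these data known. List medians ran from -0.14 for interferon genes to 0.18 for immediate early genes.

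Fatty acid synthesis, the route from citrate to palmitate and its desaturation, had no gene apart among 26 tested, and its log2 ratios ran from -0.18 to 0.27 with a median of -0.06. Fasn, the synthase itself, was at 122 CPM in the control and 134 CPM with HFD-vWAT-Exos. Acaca, the rate-limiting carboxylase (shared reads), was at 49.96 and 44.1 CPM, and Scd1, a desaturase, at 76.1 and 72.0 CPM. Srebf1, which encodes the lipogenic factor SREBP-1, had a log2 ratio of -0.10. Triglyceride synthesis and lipid droplet genes had 13 of 18 higher and none apart, with a median of 0.09. Lpin3, a phosphatidate phosphatase, was the highest of them, at 6.67 and 10.8 CPM (1.61-fold, 1.31 to 2.00). Dgat2, which forms triglycerides, had a log2 ratio of 0.25, and Plin2, a droplet coat protein, 0.05.

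Fatty acid uptake and lipoprotein genes were higher in 14 of 16, with a median log2 ratio of 0.10 and none apart. Apoe, a lipoprotein component, went from 1.49 to 2.93 CPM (1.97-fold, 1.27 to 3.10) with the control lowest of the 7 libraries, and Angptl4, an inhibitor of lipoprotein lipase, from 255.9 to 369 CPM (1.44-fold, 1.40 to 1.49). Lpl itself was at 1031 and 1152 CPM. Lipolysis genes had 4 of 10 higher and log2 ratios from -0.20 to 0.13, with Pnpla2, the first lipase of the pathway, at 0.13. Fatty acid oxidation genes had 19 of 27 lower and a median of -0.05, and Cpt1a, the carnitine transferase that admits fatty acids to mitochondria, was at 118 and 119 CPM.

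Cholesterol synthesis genes had 15 of 30 higher and none apart, with Idi1 at -0.45 and Fdps at -0.38 the lowest log2 ratios (both share reads). Glycolysis genes had 10 of 26 higher, glycogen genes 10 of 19, and genes of insulin and PI3K-AKT-mTOR signalling 19 of 34, none of them apart. Igf2, a growth factor that shares reads with another gene, was the highest of the last group at 11.2 and 21.1 CPM (1.88-fold, 1.60 to 2.20). Irs1, the insulin receptor substrate (shared reads), had a log2 ratio of -0.14 and Akt1 of 0.02. Nuclear and mitochondrial genes of oxidative phosphorylation had medians of -0.04 and 0.09, none apart.

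Thermogenesis genes held 2 apart among 12 tested, both lower and both weak. Both lie below 2 CPM, where 12.8% of all genes were apart. Ebf2, a transcription factor of brown fat cells, had 29 counts in the control and 10 counts with HFD-vWAT-Exos (2.81-fold lower, 1.33 to 6.46). Ppargc1b, a coactivator of mitochondrial genes, had 40 and 17 counts (2.28-fold lower, 1.26 to 4.29). In neither was HFD-vWAT-Exos the lowest library, since Ebf2 ranged from 0.265 to 1.48 CPM and Ppargc1b from 0.684 to 1.80 CPM over all 7. Pparg, the master regulator of fat cells, was at 12.8 and 12.5 CPM. Zfp467, a zinc finger protein that favours adipogenesis, went from 5.55 to 3.17 CPM (1.75-fold lower, 1.29 to 2.39).

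Genes with a qPCR assay in the study formed a list of their own. Of 26 tested, none was apart, 11 were higher and 15 lower, with a median log2 ratio of -0.03. The largest were Apoe at 0.94 and Tnfrsf9, a TNF receptor family member, at 0.89 (5.05 and 9.41 CPM), and the lowest was Il1rn at -0.71. Another 18 readouts, Ucp1, Il17a and Prdm16 among them, were below 1 CPM in both libraries.

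Reported miR-200 targets had 13 of 23 lower, none apart and a median of -0.03. Whether their mRNAs pair with the seeds shown above was not examined. Suz12, a subunit of Polycomb repressive complex 2, was lowest with HFD-vWAT-Exos among all 7 libraries, at 40.8 CPM against 79.1 CPM in the control and 78.7 to 259 CPM in the others (1.94-fold lower, 1.79 to 2.11). Klhl20, a ubiquitin ligase adaptor, was at 18.4 CPM against 32.4 CPM (1.77-fold lower, 1.56 to 2.00), and there the control was highest and HFD-vWAT-Exos lowest, with 20.3 to 25.02 CPM in the other 5. Zeb1 and Zeb2, the best known targets, had log2 ratios of -0.06 and -0.16.

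Contractile and YAP target genes, which report tension on the cytoskeleton, had 17 of 28 lower. Apart were 2 of the 28, against 1.99% of all genes tested. Tagln (transgelin) was at 17.0 CPM in the control, 6.61 CPM with HFD-vWAT-Exos and 3.44 to 16.2 CPM in the others (2.57-fold lower, 2.11 to 3.14). It shares 67.9% of its exon bases with other genes. Ankrd1, a YAP target, was lowest with HFD-vWAT-Exos, at 1.96 CPM against 4.46 CPM (2.28-fold lower, 1.58 to 3.36). Acta2, smooth muscle actin, was at 358 CPM in the control, 240 CPM with HFD-vWAT-Exos and 30.0 to 296 CPM in the others. Ctgf, also a YAP target but listed with the matrix genes, differed the other way, at 1.49 CPM in the control, 3.68 CPM with HFD-vWAT-Exos and 3.27 to 94.7 CPM elsewhere (2.47-fold higher, 1.63 to 3.83). It shares 23.2% of its exon bases with other genes.

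Collagens and their cross-linking enzymes had 23 of 30 higher with a median log2 ratio of 0.11 and none apart. P3h1, a collagen prolyl hydroxylase, had the highest ratio, at 79.4 and 117 CPM. By absolute gain in CPM the leading genes were matrix and mitochondrial ones with small ratios. They included Col1a1 (7827 to 8625 CPM) and mt-Co1 (11380 to 13870 CPM, shared reads), while the largest losses included Ptn, a heparin-binding growth factor (4375 to 3493 CPM), and Postn (periostin, 5572 to 5051 CPM). Of 28 tested matrix proteases and inhibitors 1 was apart, against 1.99% of all genes tested. This was Mmp12, macrophage elastase, with 7 and 40 counts (5.90-fold higher, 2.62 to 15.6). HFD-vWAT-Exos was not its highest library, at 1.86 CPM against 2.03 CPM with LFD-vWAT-Exos. Mrc1, a macrophage mannose receptor, had 11 and 25 counts and was also apart (2.35-fold higher, 1.11 to 5.29). Both genes lie below 2 CPM in the 2 libraries compared, where 12.8% of all genes were apart. The summed level of 18 macrophage markers, Mrc1 among them, was 197 CPM in the control and 212 CPM with HFD-vWAT-Exos. Of this sum Lgals3, which other cells also express, made up 145 and 151 CPM. Of the 18 markers 6 were tested, and all 6 were higher, with a median log2 ratio of 0.20. Among the untested ones, the defining Ptprc, Itgam and Tyrobp had 2, 2 and 0 counts in the control and 0 counts with HFD-vWAT-Exos. Adgre1 and Csf1r, also untested, had 3 and 12 counts in the control and 6 and 19 counts with HFD-vWAT-Exos.

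Immediate early genes had 20 of 26 higher, the highest list median at 0.18, and none apart. Hbegf, an EGF receptor ligand, went from 14.4 to 25.5 CPM (1.77-fold, 1.54 to 2.04), and lay above the control in every other library, at 21.4 to 118 CPM. Fosl1 (shared reads) and Maff, AP-1 family members, had log2 ratios of 0.63 and 0.59. Glucocorticoid and cAMP targets had 15 of 20 higher and a median of 0.15. Cell cycle genes had 27 of 41 lower, a median of -0.07 and none apart, with Ccnd1 (cyclin D1, shared reads) lowest at -0.46. The clock list held 1 gene apart of 15 tested, where 1.99% of all genes tested were apart. This was Ciart, a repressor of the clock that shares reads with another gene, at 4.01 and 8.57 CPM (2.14-fold higher, 1.65 to 2.78).

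In some genes the control departed from all or nearly all other libraries. Ak4, a mitochondrial adenylate kinase of the hypoxia list, was at 31.2 CPM in the control, 3.91 CPM with HFD-vWAT-Exos and 3.18 to 11.6 CPM in the others. It was 7.99-fold lower (6.36 to 10.1). Of the 32 tested hypoxia genes it was the 1 apart, against 1.99% of all genes tested. Nfat5, a factor of the osmotic stress response, was at 424 CPM in the control, 211 CPM with HFD-vWAT-Exos and 172 to 211 CPM in 4 others, and only LFD-vWAT-Exos, at 575 CPM, lay beyond the control. Rnf170, a ubiquitin ligase, was at 25.4 CPM in the control and 4.89 to 7.57 CPM in all 6 exosome libraries. In the other direction Il13ra2, a decoy receptor for interleukin 13, was at 1.22 CPM in the control, 5.31 CPM with HFD-vWAT-Exos and 3.67 to 60.6 CPM elsewhere (4.36-fold higher, 2.85 to 6.90). Murc, a caveolar protein of muscle, was at 1.17 CPM in the control and 3.89 to 77.7 CPM in the 6 exosome libraries. In these genes other than Nfat5 all 6 exosome libraries lay on the same side of the control, which is the one library that their comparisons share.

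In other genes HFD-vWAT-Exos departed from all 6 remaining libraries. The 10 with the widest gap below all other libraries were Tlr4 and Suz12, given above, and the 8 that follow. Dnmt3a, a DNA methyltransferase, was at 22.1 CPM with HFD-vWAT-Exos, 56.7 CPM in the control and 46.1 to 130 CPM in the others (2.57-fold lower than the control, 2.31 to 2.86). Mef2a, a MADS-box transcription factor, was at 26.3 CPM against 50.6 to 73.6 CPM, and Etv6, an ETS family repressor, at 12.2 CPM against 23.8 to 30.8 CPM. Zbtb18, a zinc finger repressor, was at 5.31 CPM against 9.89 to 14.98 CPM, and Zbtb4, a related protein that binds methylated DNA, at 6.15 CPM against 12.2 to 60.9 CPM. Ube2v2, a ubiquitin enzyme variant, was at 5.40 CPM against 11.9 CPM in the control, and Gm608 at 4.80 CPM against 11.5 to 54.2 CPM. Rab43, a small GTPase, was at 15.2 CPM against 72.5 to 100 CPM, and shares 75.4% of its exon bases with RP23-4F16.12. With both summed the level was 16.4 CPM against 89.0 CPM in the control. These genes were picked by the size of their gap, so their number is no measure of an effect.

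**Figure D3:**
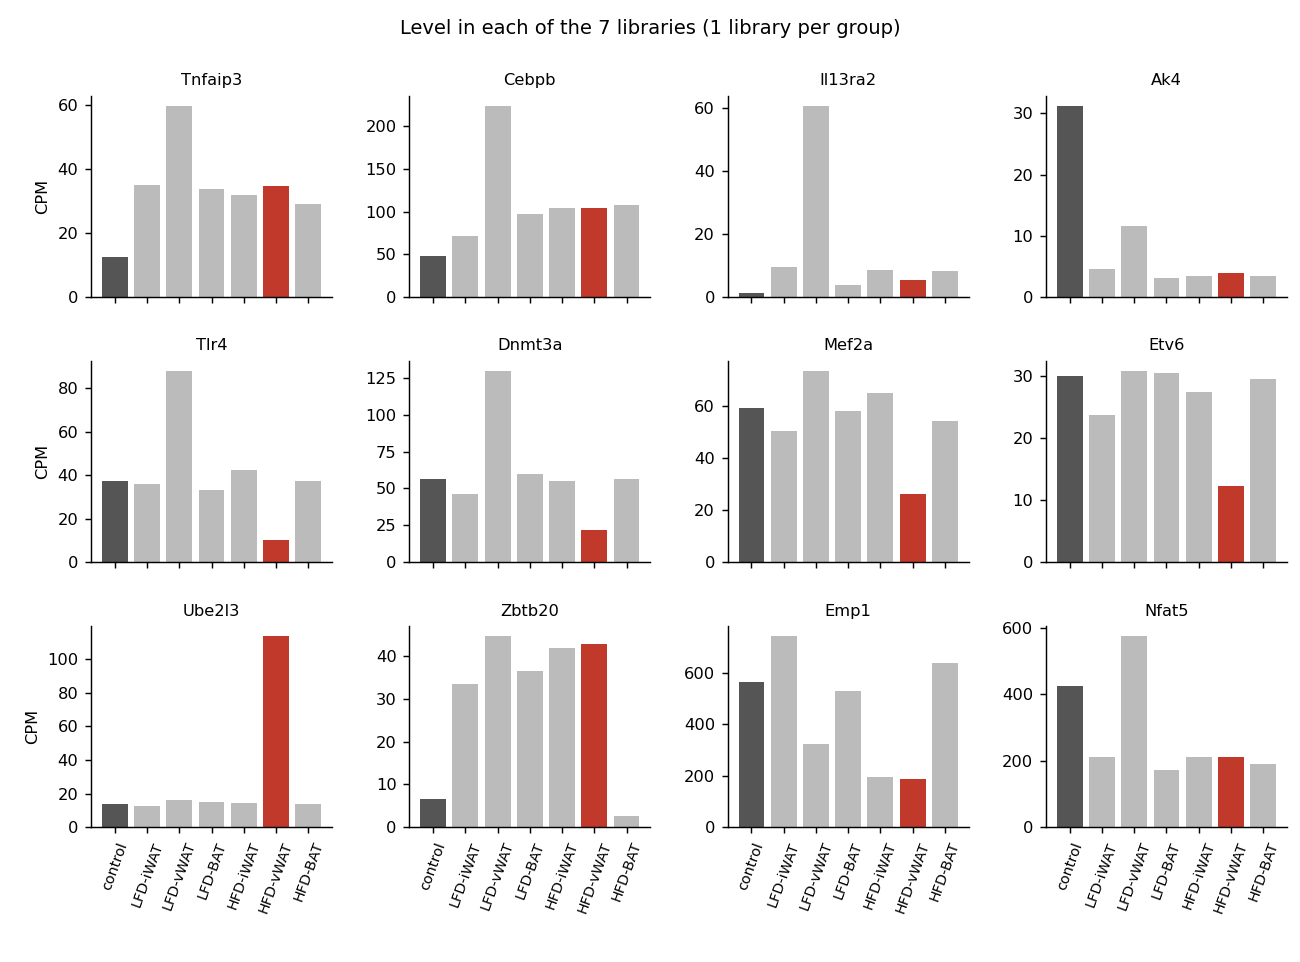
CPM of 12 genes (bars, from 0) in each of the 7 libraries, 1 library per group, with the control dark grey and HFD-vWAT-Exos red. In the top row the control departs (Tnfaip3, Cebpb, Il13ra2, Ak4), in the middle row HFD-vWAT-Exos is lowest, and in the bottom row Zbtb20 and Emp1 fall into high and low libraries.

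Of the 10 genes with the widest gap above all other libraries 5 were apart from the control, and all 5 share reads. Ube2l3, a ubiquitin-conjugating enzyme, was at 114 CPM against 12.7 to 16.5 CPM in all others (8.06-fold above the control, 7.17 to 9.10). It overlaps Ydjc on the other strand, and with both summed the level was 124 CPM against 19.1 to 26.9 CPM. Gm21092, an unprocessed pseudogene, was at 99.04 CPM against 3.08 to 4.92 CPM, but 93.3% of its 31-base words occur in other genes. RP23-325D10.3 had 183 counts and the control 0, which makes it at least 63.0-fold higher if the 0 is read as at most 3 counts. All of its exon bases lie in other genes. Klhdc10, a kelch domain protein without such overlap, was at 128 CPM against 37.0 to 79.7 CPM (1.88-fold above the control, 1.76 to 2.00), below the 2-fold limit.

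A further set fell into high and low libraries, with HFD-vWAT-Exos sharing its side with different libraries from gene to gene. Zbtb20, a transcription factor of the preadipocyte list, was at 6.58 CPM in the control and 2.69 CPM with HFD-BAT-Exos, and at 33.4 to 44.6 CPM in the other 5, HFD-vWAT-Exos included at 42.8 CPM. It was 6.51-fold higher than in the control (5.46 to 7.80). Emp1, a membrane protein, was at 189 CPM with HFD-vWAT-Exos and 196 CPM with HFD-iWAT-Exos, against 325 to 743 CPM in the other 5. Tmem127, an endosomal protein, was at 13.6 CPM with HFD-vWAT-Exos and 10.1 to 12.5 CPM in 3 others. It was at 81.9 CPM in the control, 76.0 CPM with LFD-iWAT-Exos and 47.45 CPM with LFD-vWAT-Exos. Fam107b was low in all 3 HFD libraries, at 11.7 CPM with HFD-vWAT-Exos and 13.5 and 16.5 CPM in the other two, and at 53.9 to 79.9 CPM in the control and the 3 LFD libraries. With 1 library per group, this split by diet was not tested. What set these levels was not tested.

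In several sets of genes that share exons, single genes were far apart while the sum of the set differed less. Gm28036 went from 7.49 to 45.0 CPM and Cpne1, which covers most of its exons, from 48.2 to 14.9 CPM, yet their sum was 55.7 CPM in the control and 59.9 CPM with HFD-vWAT-Exos (ratio 1.07, 0.993 to 1.16). RP23-325D10.3 summed with Setd1a and Hsd3b7 gave 81.0 and 88.8 CPM (ratio 1.10, 1.03 to 1.17). Akap2 went from 16.10 to 59.1 CPM and Pakap from 55.5 to 36.2 CPM, with sums of 71.6 and 95.3 CPM. Gm20518 and Dgcr2 summed to 106 and 71.7 CPM. The same held for Ugt1a9, which had 70 counts in the control and 0 with HFD-vWAT-Exos, while the 9 genes of its cluster summed to 78.5 and 80.4 CPM. Ramp2 had 86 and 0 counts, and with Vps25 it summed to 34.0 and 31.4 CPM.

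**Figure D4:**
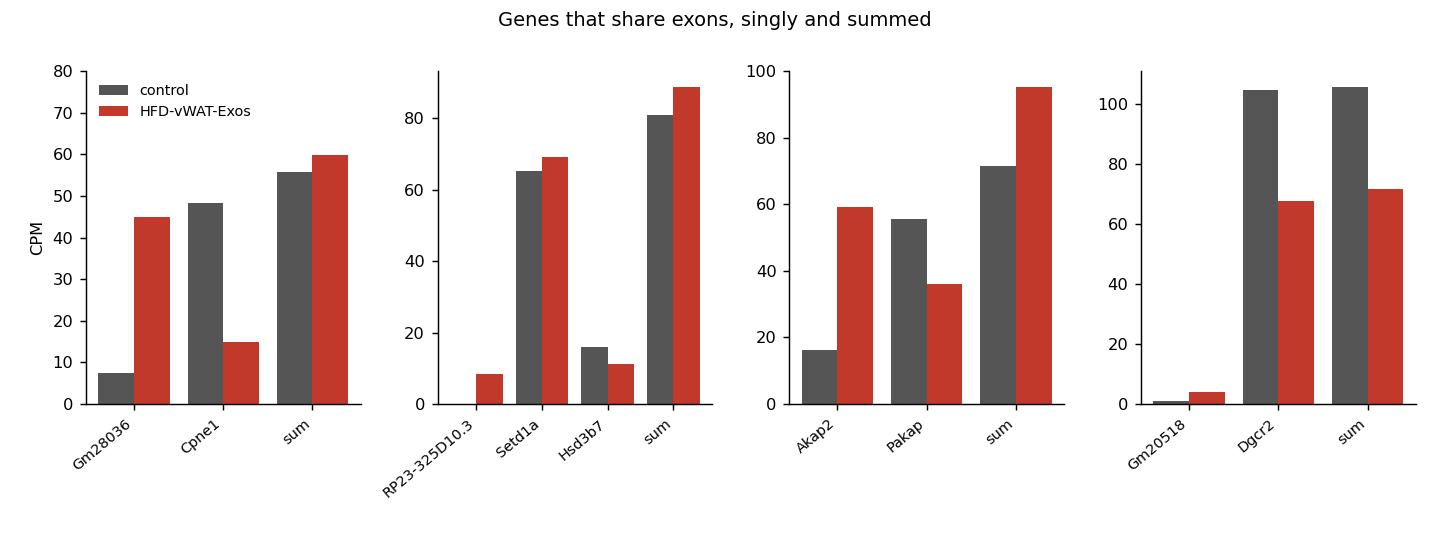
CPM (bars, from 0) in the control and with HFD-vWAT-Exos for 4 sets of genes that share exons, singly and summed; 1 library each. Gm28036 and Cpne1 trade places while their sum stays at 55.7 and 59.9 CPM.

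The protocadherin gamma cluster, whose genes share their last exons, did not even out in this way. Pcdhgc3 was at 446 CPM in the control and 23.8 CPM with HFD-vWAT-Exos, near the 17.6 and 18.5 CPM of LFD-BAT-Exos and LFD-iWAT-Exos and far from the 131 to 439 CPM of the other 3. Pcdhga9 had 1046 counts in the control, 11 with HFD-vWAT-Exos and at most 0.512 CPM outside the control. Over all 22 genes of the cluster the sum was 623 CPM in the control, 188 CPM with HFD-vWAT-Exos and 165 to 937 CPM in the other 5. How the reads of the shared exons were assigned was not tested.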

How the data were processed

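Per the study's methods, fastp (trimming), HISAT2 (mapping) and StringTie with gffcompare (assembly and quantification) were run by the authors. Versions, strand setting, mouse build and annotation are not given in the sources used here (a human reference is named there, but the gene IDs are of mouse). The deposited table holds raw counts per gene, not normalized. The deposited FPKM were computed by the authors from exon length and library total.

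Counts were scaled with TMM factors (edgeR 4.0.16, R 4.3.3) from all 7 libraries, estimated on genes that passed filterByExpr. Factors were 1.01 and 1.00 for the 2 libraries compared and 0.950 for LFD-vWAT-Exos. Log2 ratios carry a prior count of 2, and the tested genes reached 1 CPM in one or both libraries. With 1 library per group no test was made. A gene was apart at 2-fold with a 95% counting interval (scipy 1.17.1) excluding equal levels. A count of 0 was read as at most 3 counts, or 0.140 CPM with HFD-vWAT-Exos and 0.135 CPM in the control. Gene overlaps and biotypes come from GENCODE M21 (GRCm38), in which 34267 gene IDs were found. Dates stood in place of 27 gene names and were replaced by the symbol of their ID. Of the list symbols, mt-Rnr1 and mt-Rnr2 are not analysed here.

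Members and gene lists were chosen with earlier results of these data known. Named genes were the study's readouts, list members apart or else up to 4 per list with the largest ratio and at least 50 counts, the 15 highest and 15 lowest ratios with at least 100 counts, the 10 largest gains and losses in CPM, the 10 largest gaps of HFD-vWAT-Exos to the other 6 libraries in each direction, and genes with 0 counts in one library. Other genes named were chosen after their values were seen. Scripts were tested on simulated data.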

Additional observations from a re-analysis of the deposited data

How the results depend on the processing

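Scaling changed little. The 247 genes apart became 248 with library totals only, 245 with DESeq2 1.42.0 size factors and 247 with TMM factors of the 2 libraries alone or without LFD-vWAT-Exos, the last chosen after seeing the data. Prior counts of 0.5 and 5 gave 257 and 215. The level of expression mattered more. Without a filter 572 of 18609 genes were apart (320 higher, 252 lower), at 10 CPM or more 78 (31 higher, 47 lower), and at 1.5-fold 654 (419 higher, 235 lower). On the deposited FPKM plus 1, which shrinks weak genes, 49 genes were 2-fold apart (20 higher, 29 lower) and 4 of the 12 list members remained. Summing genes that share exons left 199, and dropping genes with shared reads left 176 and 8 list members, both chosen after seeing the data. With the 6 libraries other than LFD-vWAT-Exos, the control held the extreme in 161 genes apart in place of 132, and HFD-vWAT-Exos in 130 in place of 102. No gene apart that is named changed its direction under the scalings, prior counts or FPKM. Genes near 1 CPM rest on about 20 counts. No paired analysis was possible because each group has 1 library and the labels link no cultures.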
